A study of Homo sapiens with 10 samples.

Results

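The genes described here are those of the ISWI chromatin remodelers: *SMARCA1* and *SMARCA5*, which encode the ATPases, and 8 genes of subunits that join them, *BPTF*, *BAZ1A*, *BAZ1B*, *BAZ2A*, *BAZ2B*, *CECR2*, *RSF1* and *RBBP4*. They were taken by name from the gene column of the count files, and all 10 of the 10 were found among the 59386 genes listed and passed the filter on low counts, which kept 16899 genes. The libraries come from VCaP, a line of human prostate cancer cells, with a time of 72 h for all. The knockdown libraries had been transfected with a siRNA. *SMARCA4* was targeted with siRNA A or siRNA B and *SMARCA1* with siRNA A or siRNA C, at 30 pmol. Each siRNA had 2 libraries, which gave 4 libraries of *SMARCA4* knockdown, 4 of *SMARCA1* knockdown and 2 controls, labelled as wild type, for which the sources used here name neither a siRNA nor a dose. All cells were of the same line, and no library is tied by its labels to a separate culture, so that p-values measure the spread between these libraries, which may be technical. What follows from the loss of a target and from transfecting a siRNA cannot be told apart against these controls, but *SMARCA4* and *SMARCA1* knockdown can be set against each other.

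ISWI ATPases slide and space nucleosomes, and each works with partner subunits that decide where and on what chromatin it acts. In textbook complexes, *BPTF*, which reads methylated histone tails, joins *SMARCA1* and the histone-binding protein *RBBP4* in NURF, and *CECR2* joins *SMARCA1* in CERF. *BAZ1A*, *BAZ1B*, *BAZ2A* and *RSF1* are known as partners of *SMARCA5* in ACF and CHRAC, in WICH, in the ribosomal DNA silencing complex NoRC and in RSF. *SMARCA4* is the ATPase of another family of remodelers, SWI/SNF.

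The siRNA sequences listed by the study for *SMARCA1* are shown because *SMARCA5* is the close relative of the target. The coding sequences of *SMARCA1* and *SMARCA5* were identical at 74.3% of 3144 aligned bases. The longest coding transcript of *SMARCA1* and the longest transcript of *SMARCA5* in GENCODE share no run longer than 32 bases. Each siRNA is set above its best match in any *SMARCA5* transcript, with the bases that differ in capitals. All are written 5′ to 3′, the siRNAs in RNA letters and the sites in DNA letters.
SMARCA1-siRNA-1#: gGaaGacAauAggCuaUaagguUcc
SMARCA5 site for 1#: gAaaAacTatTggGtaCaaggtAcc
SMARCA1-siRNA-2#: gGauUguagaaAgAgcugagauAaa
SMARCA5 site for 2#: gAatAgtagaaCgTgctgagatGaa

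The first siRNA matched *SMARCA1* at all 25 bases, across the junction of exons 19 and 20 of the 25 exons of a coding transcript (hg38, minus strand, chrX:129480701-129480720 and chrX:129471322-129471326). The second matched all 25 bases within exon 15 (chrX:129490092-129490116). Both sites lie in coding sequence and in 3 of 3 coding transcripts of *SMARCA1*, and neither siRNA matched another of the 10 genes in full. In *SMARCA5* the first differed at 7 of 25 bases, with no matched run longer than 5 bases, and the second at 5 of 25, in exon 14 (plus strand, chr4:143540439-143540463), with a matched run of 8 bases. The listed *SMARCA4* siRNAs are written as the complement of their sites in *SMARCA4*. The stretch of *SMARCA1* closest to one of them differed at 7 of 27 bases. There the listed strand ran in the sense of the *SMARCA1* transcript, unlike its match in *SMARCA4*. The sources used here do not say which numbered siRNA is which letter, so that no library can be tied to a sequence.

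Total counts per library lay between 23898545 and 34667965. The targets were low where the labels place them. *SMARCA4* had 242.2 and 267.6 CPM (counts scaled to library size by TMM) in the controls, 13.3 to 25.2 in *SMARCA4* knockdown and 228.3 to 249.7 in *SMARCA1* knockdown. Prostate epithelial markers were at 1 CPM or more in every library for 12 of 12 genes, among them *ERG* and *HOXB13*. Among the immune markers, *PTPRC*, *CD3E* and *CD68* stayed at or below 0.0698 CPM, while *LYZ* ranged from 0.52 to 22.5, with a summed level of the list of 0.52 to 0.795 in the controls, 1.72 to 15.5 in *SMARCA4* knockdown and 8.08 to 22.5 in *SMARCA1* knockdown. Of 5 fibroblast markers 2, *COL1A1* and *LUM*, were at 1 CPM or more in every library, and the list summed to 23.6 and 27.2 CPM in the controls, 18.1 to 34.8 in *SMARCA4* knockdown and 37.0 to 55.0 in *SMARCA1* knockdown. The part of these markers in the results was not tested. The summed level of 24 interferon response genes was 305 and 311 CPM in the controls, 16066 to 44028 in *SMARCA4* knockdown and 23479 to 45780 in *SMARCA1* knockdown, and the part of this response in the results below was not tested. The summed level of 15 proliferation genes was 2979 and 3002 CPM in the controls, 1437 to 1799 in *SMARCA4* knockdown and 1828 to 2324 in *SMARCA1* knockdown, and its part was not tested either.

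Some libraries stood apart from their replicates. In *SMARCA1* siRNA A replicate 1 the level ran with gene length: the median log2 ratio to the controls was 0.30 over the 392 genes of up to 1500 bases and -0.45 over the 1016 genes of more than 12000 bases. In the other 7 knockdown libraries these medians lay between -0.20 and 0.10. Of the ISWI genes, 9 had lengths from 7060 bases (*BAZ1B*) to 20247 (*BAZ2B*) in the files, where that library's medians were below 0 (-0.07, -0.30 and -0.45 in the bins that hold them), and *SMARCA1*, with 4363 bases, was in a bin with a median of 0.09. In *SMARCA4* siRNA A replicate 2 the interferon genes were at 16066 CPM, the lowest of the 8 knockdown libraries. Below, results of single genes that change call without 1 of these libraries, or with the length trend taken out of each library, are given with that value. Changes of call with both of these libraries left out are not all given.

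**Figure D1:**
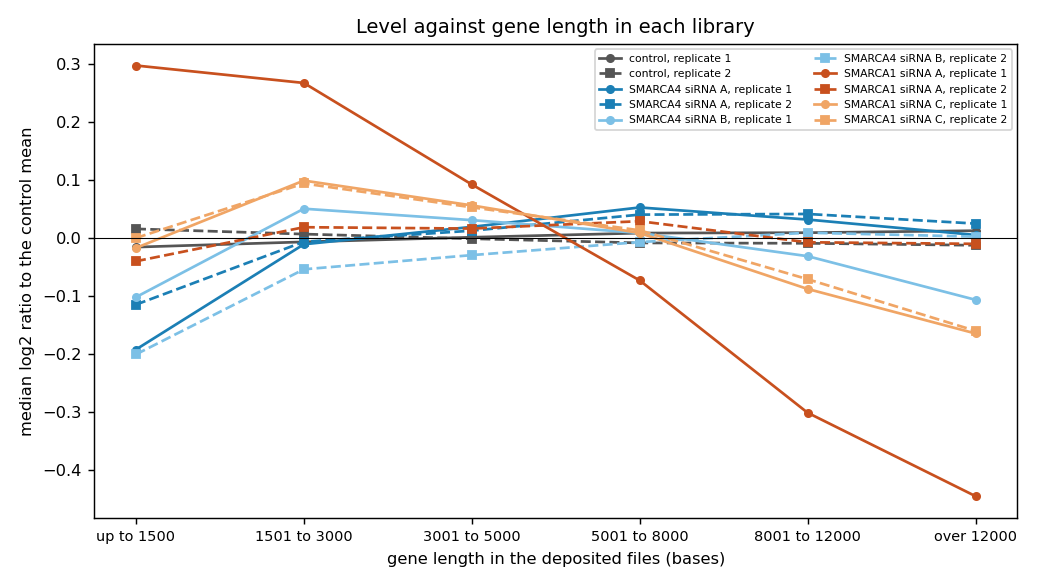
Median log2 ratio of gene level to the mean of the controls, by gene length in bases, with 1 line per library (solid line and circle, replicate 1; dashed line and square, replicate 2). The line of *SMARCA1* siRNA A replicate 1 falls from 0.30 in the shortest genes to -0.45 in the longest, while the other lines stay between -0.20 and 0.10.

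*SMARCA1* rose to 211% of its control level in *SMARCA4* knockdown and fell to 8.78% in *SMARCA1* knockdown, while *SMARCA5* rose on average in both. The rise of *SMARCA5* missed the threshold given below with siRNA A alone of either target. In *SMARCA1* knockdown 3 of 4 libraries lay above both controls. In bulk RNA such as this, fewer cells with a transcript and less of it per cell cannot be told apart. Log2 fold changes and adjusted p-values come from edgeR's quasi-likelihood test over 16899 genes, with Benjamini-Hochberg adjustment, and a gene was called at an adjusted p below 0.05. Each siRNA was its own group in the fit, so that these p-values rest on the spread between libraries of the same siRNA. The difference between the siRNAs of a target does not enter the p-value of a knockdown.

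*SMARCA1* stood at 32.3 and 31.5 CPM in the controls. It had 67.5 and 83.8 CPM with *SMARCA4* siRNA A and 57.4 and 60.6 CPM with siRNA B. All 4 libraries of *SMARCA4* knockdown lay above both controls, and the log2 fold change was 1.07 (SE 0.18, adjusted p = 0.001 by edgeR's quasi-likelihood test). The rise was called with siRNA A alone (1.25) and with siRNA B alone (0.89), and with each of the 10 libraries left out in turn. In *SMARCA1* knockdown the gene had 3.4 and 1.75 CPM with siRNA A and 3.2 and 2.85 CPM with siRNA C, from 43 to 100 counts. The log2 fold change was -3.51 (SE 0.18, adjusted p = 2.14e-06), and the siRNAs did not differ detectably (siRNA A minus siRNA C -0.22, 95% interval -0.79 to 0.36).

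*SMARCA5* stood at 199.6 and 196.2 CPM in the controls. With *SMARCA4* siRNA A it had 325.1 and 229.3 CPM, and with siRNA B 346.4 and 364.7 CPM. All 4 values were above both controls. The lowest came from siRNA A replicate 2, where the interferon genes were lowest among the knockdowns and *SMARCA1* was highest (83.8 CPM). The part of the interferon response in either was not tested. The log2 fold change in *SMARCA4* knockdown was 0.67 (SE 0.17, adjusted p = 0.00902 by edgeR's quasi-likelihood test). It was called with siRNA B alone (0.85, adjusted p = 0.00496) and missed the threshold with siRNA A alone (0.49, adjusted p = 0.0722). The call was also lost without control replicate 1 (0.72, adjusted p = 0.0556) or control replicate 2 (0.68, adjusted p = 0.06), where the estimate itself did not shrink.

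In *SMARCA1* knockdown, the paralog had 199.1 and 287.8 CPM with siRNA A and 320.8 and 318.3 CPM with siRNA C. The first of these, in the library with the length trend, was at the control level, and the other 3 were above both controls. The log2 fold change was 0.49 (SE 0.17, adjusted p = 0.0328 by edgeR's quasi-likelihood test). With siRNA C alone it was 0.69 (adjusted p = 0.0138) and with siRNA A alone 0.30 (adjusted p = 0.243), although the siRNAs were not shown to differ (-0.39, 95% interval -0.81 to 0.03). The call was lost without siRNA C replicate 1 (0.50, adjusted p = 0.0627), siRNA C replicate 2 (0.50, adjusted p = 0.0688), control replicate 1 (0.53, adjusted p = 0.123) or control replicate 2 (0.50, adjusted p = 0.136). With the length trend taken out it was 0.50 (adjusted p = 0.0088). The rise of *SMARCA5* was not shown to differ between the knockdowns (*SMARCA4* minus *SMARCA1* knockdown 0.17, 95% interval -0.12 to 0.47), except without *SMARCA1* siRNA A replicate 2 (0.32, adjusted p = 0.0339).

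**Figure D2:**
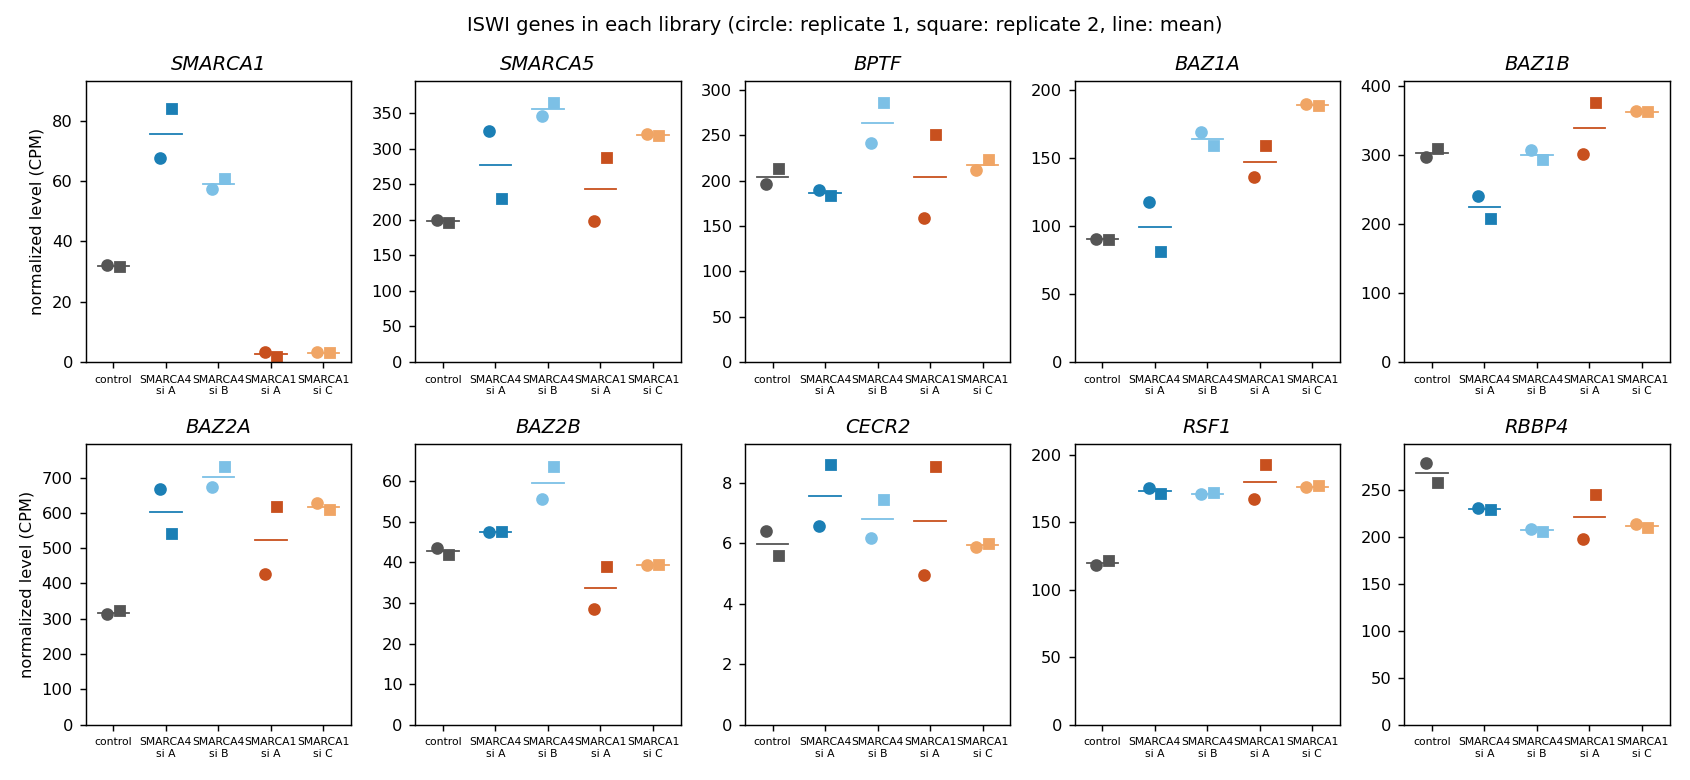
Level of each ISWI gene in each library, in TMM-scaled CPM on a linear axis from 0, by siRNA group (circle, replicate 1; square, replicate 2; line, mean of the 2). *SMARCA1* is at 32.3 and 31.5 CPM in the controls, 57.4 to 83.8 in *SMARCA4* knockdown and 1.75 to 3.4 in *SMARCA1* knockdown, and *BAZ2A* and *RSF1* lie above both controls in all 8 knockdown libraries.

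To compare the ATPase genes with each other, levels were divided by gene length (CPM per kilobase). In the controls *SMARCA5* was at 24.5 and 24.1 CPM per kilobase and *SMARCA1* at 7.4 and 7.21, so that *SMARCA1* made up 23.2% and 23.0% of their sum. With *SMARCA4* siRNA B this share was 23.6% and 23.7%, and with siRNA A 27.9% and 40.6%. Over the 4 libraries it was 28.9% ± 8.0 (SD, n = 4), and the difference of 5.83 percentage points from the controls has an exact two-sided permutation p of 0.133, the smallest that 4 libraries against 2 allow. Without siRNA A replicate 2 the difference was 1.96 points. In *SMARCA1* knockdown the share was 3.09% and 1.12% with siRNA A and 1.83% and 1.64% with siRNA C.

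The summed level of both ATPase genes was 31.9 and 31.3 CPM per kilobase in the controls. In *SMARCA4* knockdown it was 55.4 and 47.3 with siRNA A and 55.7 and 58.7 with siRNA B, on average 172% of the control mean. In *SMARCA1* knockdown it was 25.2 and 35.7 with siRNA A and 40.1 and 39.7 with siRNA C, on average 111%. The library with the length trend lay below the controls and the other 3 above them, and siRNA A alone gave a mean 1.13 lower than the controls (difference -1.13). Against the controls the exact two-sided permutation p was 0.133 for *SMARCA4* knockdown, the smallest possible, and 0.533 for *SMARCA1* knockdown. The sums of *SMARCA4* and *SMARCA1* knockdown did not overlap and differed by 19.1 CPM per kilobase (exact two-sided permutation p = 0.0286, the smallest that 70 rearrangements of 4 against 4 allow). That sum holds the target of one arm: *SMARCA1* had a mean of 15.4 CPM per kilobase in *SMARCA4* and 0.641 in *SMARCA1* knockdown, while *SMARCA5*, at 38.8 and 34.6, was not shown to differ (adjusted p = 0.339 by edgeR's quasi-likelihood test).

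**Figure D3:**
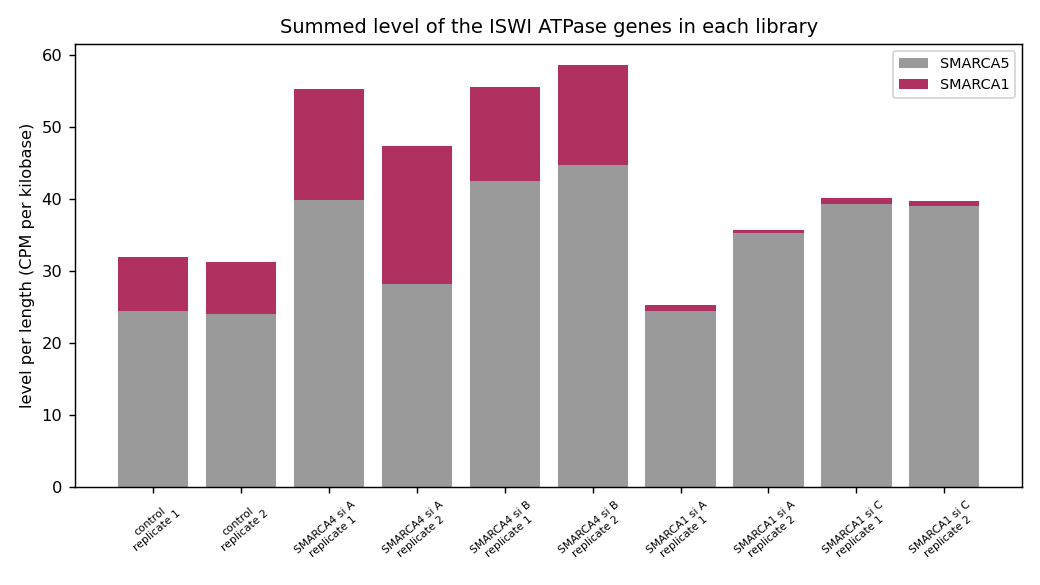
Level of *SMARCA5* (grey) and *SMARCA1* (red) per length in each library, in CPM per kilobase, stacked so that a bar's height is their sum. The sum is 31.9 and 31.3 in the controls, 47.3 to 58.7 in *SMARCA4* knockdown and 25.2 to 40.1 in *SMARCA1* knockdown.

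Over all 10 genes, 6 were called in *SMARCA4* knockdown, where 45.1% of all genes tested were called. Of these, 5 were higher (22.8% of all genes) and 1 was lower (22.3% of all genes). In *SMARCA1* knockdown 6 were called against 46.8% of all genes, 4 of them higher (23.8%) and 2 lower (23.0%), *SMARCA1* itself among the latter. Without control replicate 1 or control replicate 2, 3 of the 10 genes were called in *SMARCA4* knockdown, and the count over all genes fell as well, from 7616 to 4413 and 4913. The share called in either direction is thus near the background in both comparisons. The median log2 fold change of the 10 genes was 0.41 in *SMARCA4* and 0.15 in *SMARCA1* knockdown, while that of all genes tested was 0.00 in both. Without *SMARCA1*, the target of one arm, the medians of the other 9 were 0.31 and 0.21. The comparisons share the 2 control libraries, so that their values are not independent. Of the subunit genes, *BAZ1A*, *BAZ2A* and *RSF1* were called higher and *RBBP4* lower in both knockdowns. *BPTF*, *BAZ1B*, *BAZ2B* and *CECR2* were called in neither. The share of all genes called in both knockdowns was not computed.

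**Figure D4:**
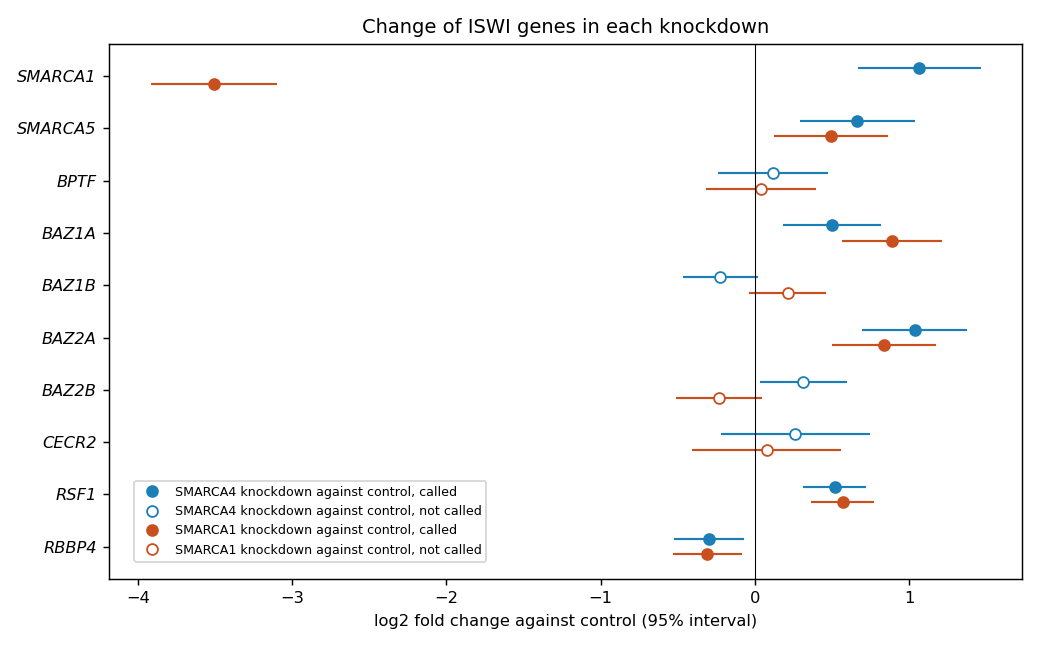
Log2 fold change of each ISWI gene against the controls in *SMARCA4* knockdown (blue) and *SMARCA1* knockdown (orange), with 95% intervals from edgeR's quasi-likelihood fit; filled points passed an adjusted p of 0.05. *BAZ2A* is at 1.04 and 0.84, *RSF1* at 0.52 and 0.57 and *RBBP4* at -0.30 and -0.31.

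Among the partners of *SMARCA5*, *BAZ2A*, the large subunit of NoRC, had the largest log2 fold change in *SMARCA4* knockdown. It had 311.9 and 322.5 CPM in the controls, 666.4 and 539.3 with *SMARCA4* siRNA A, 673.9 and 729.7 with *SMARCA4* siRNA B, 426.4 and 617.4 with *SMARCA1* siRNA A, and 626.8 and 607.6 with *SMARCA1* siRNA C. All 8 knockdown libraries were above both controls. The log2 fold change was 1.04 in *SMARCA4* knockdown (SE 0.15, adjusted p = 0.00046) and 0.84 in *SMARCA1* knockdown (SE 0.15, adjusted p = 0.00153), by edgeR's quasi-likelihood test. Each siRNA alone gave the call, with log2 fold changes from 0.72 to 1.15, and no library left out removed it.

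*RSF1*, the histone-binding subunit of RSF, had the smallest SE of the 10 genes in both knockdowns. It had 118.5 and 121.6 CPM in the controls, 175.0 and 170.7 with *SMARCA4* siRNA A, 170.7 and 171.6 with *SMARCA4* siRNA B, 167.5 and 192.7 with *SMARCA1* siRNA A, and 175.7 and 177.0 with *SMARCA1* siRNA C. No knockdown library overlapped the controls. The log2 fold changes were 0.52 (SE 0.09, adjusted p = 0.00133) and 0.57 (SE 0.09, adjusted p = 0.000854) in *SMARCA4* and *SMARCA1* knockdown by edgeR's quasi-likelihood test. With each siRNA alone they lay between 0.51 and 0.59 and were called, as they were with each library left out. The knockdowns were not shown to differ (-0.05, 95% interval -0.21 to 0.11), although with the length trend taken out *RSF1* was called lower in *SMARCA4* than in *SMARCA1* knockdown (-0.24, adjusted p = 0.0271).

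*BAZ1A*, the large subunit of ACF and CHRAC, was called with *SMARCA4* siRNA B alone and not with *SMARCA4* siRNA A alone. It stood at 90.5 and 89.9 CPM in the controls, 117.8 and 80.6 with *SMARCA4* siRNA A and 169.0 and 159.3 with *SMARCA4* siRNA B. The second library of siRNA A lay below the controls and the other 3 of *SMARCA4* knockdown above them. *SMARCA1* siRNA A gave 136.4 and 158.7 CPM and siRNA C 189.7 and 188.8 CPM, all above the controls. The log2 fold change was 0.50 in *SMARCA4* knockdown (SE 0.14, adjusted p = 0.0164) and 0.89 in *SMARCA1* knockdown (SE 0.15, adjusted p = 0.000919) by edgeR's quasi-likelihood test. In *SMARCA4* knockdown it was 0.14 with siRNA A (adjusted p = 0.551) and 0.86 with siRNA B (adjusted p = 0.00192), and the call was lost without control replicate 1 (0.54, adjusted p = 0.0766) or control replicate 2 (0.52, adjusted p = 0.0805). In *SMARCA1* knockdown each siRNA alone and each fit with a library left out gave the call.

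*BAZ1B*, the subunit of WICH, which also phosphorylates a histone tail, was called in neither knockdown against the controls. It had 296.4 and 308.9 CPM in the controls, 241.0 and 207.3 with *SMARCA4* siRNA A and 307.3 and 292.0 with *SMARCA4* siRNA B. With *SMARCA1* siRNA A it had 301.9 and 375.7 CPM, and with siRNA C 364.2 and 361.6 CPM. The log2 fold change was -0.22 in *SMARCA4* knockdown (SE 0.11, adjusted p = 0.123) and 0.21 in *SMARCA1* knockdown (SE 0.11, adjusted p = 0.142) by edgeR's quasi-likelihood test. With *SMARCA4* siRNA A alone the gene was called lower (-0.43, adjusted p = 0.0262), with siRNA B alone it was at -0.01 (adjusted p = 0.94). Without *SMARCA1* siRNA A replicate 1 it was called lower in *SMARCA4* knockdown (-0.21, adjusted p = 0.0362) and higher in *SMARCA1* knockdown (0.29, adjusted p = 0.0163), and with the length trend taken out it was called lower in *SMARCA4* knockdown (-0.30, adjusted p = 0.0156).

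*BAZ2B*, a relative of *BAZ2A* with a bromodomain that binds acetylated histones, was low, at 43.7 and 41.9 CPM in the controls. It had 47.5 and 47.4 CPM with *SMARCA4* siRNA A, 55.7 and 63.6 with *SMARCA4* siRNA B, 28.6 and 39.0 with *SMARCA1* siRNA A, and 39.3 and 39.4 with *SMARCA1* siRNA C. All 4 libraries of *SMARCA4* knockdown were above both controls and all 4 of *SMARCA1* knockdown below them. Neither difference from the controls passed the threshold, with log2 fold changes of 0.31 (SE 0.13, adjusted p = 0.067) and -0.23 (SE 0.13, adjusted p = 0.154) by edgeR's quasi-likelihood test. With *SMARCA4* siRNA B alone it was called higher (0.48, adjusted p = 0.0215), and with siRNA A alone it was at 0.15 (adjusted p = 0.46), although these siRNAs were not called different (-0.33, adjusted p = 0.193). In *SMARCA4* knockdown it was also called higher with the groups compared alone (adjusted p = 0.0159), with a minimum of 1 CPM in every library (adjusted p = 0.0464), without *SMARCA1* siRNA A replicate 1 (0.33, adjusted p = 0.00681), without *SMARCA1* siRNA A replicate 2 (0.35, adjusted p = 0.00476), without *SMARCA4* siRNA B replicate 1 (0.41, adjusted p = 0.0463) and with the length trend taken out (0.30, adjusted p = 0.0123). In *SMARCA1* knockdown it was called lower without siRNA A replicate 2 (-0.32, adjusted p = 0.0105), and was at -0.02 (adjusted p = 0.823) with the length trend taken out.

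Of the genes whose products join *SMARCA1*, *BPTF* was not called in any comparison. It had 196.2 and 212.7 CPM in the controls, 183.2 to 285.9 in *SMARCA4* knockdown (median 215.9) and 158.3 to 250.4 in *SMARCA1* knockdown (median 217.1). Values of both knockdowns lay on either side of the controls. In *SMARCA4* knockdown they split by siRNA: 190.0 and 183.2 CPM with siRNA A were below both controls, 241.9 and 285.9 with siRNA B above. The log2 fold change was -0.13 with siRNA A alone and 0.37 with siRNA B alone. Their difference was not called (-0.50, 95% interval -0.91 to -0.09, adjusted p = 0.131 by edgeR's quasi-likelihood test). Over each knockdown, the log2 fold changes were 0.12 (95% interval -0.24 to 0.48) for *SMARCA4* and 0.04 (95% interval -0.31 to 0.40) for *SMARCA1*. These leave room for changes up to those bounds.

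*CECR2* was the lowest of the 10 genes per length in the controls. It had 6.4 and 5.57 CPM there, 6.18 to 8.58 in *SMARCA4* knockdown (median 7.0) and 4.95 to 8.53 in *SMARCA1* knockdown (median 5.93). The log2 fold changes were 0.26 (95% interval -0.22 to 0.75) and 0.08 (95% interval -0.41 to 0.56), and neither was called.

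*RBBP4*, a histone-binding subunit that NURF shares with histone deacetylase and other complexes, was the only subunit gene called lower in both knockdowns. It had 277.8 and 257.1 CPM in the controls, 230.3 and 228.6 with *SMARCA4* siRNA A, 208.0 and 205.0 with *SMARCA4* siRNA B, 197.2 and 244.4 with *SMARCA1* siRNA A, and 213.2 and 209.6 with *SMARCA1* siRNA C. All 8 knockdown libraries were below both controls. The log2 fold changes were -0.30 (SE 0.10, adjusted p = 0.0358) and -0.31 (SE 0.10, adjusted p = 0.0301) by edgeR's quasi-likelihood test. By siRNA, *RBBP4* missed the threshold with siRNA A of either target (*SMARCA4* siRNA A -0.22, adjusted p = 0.179, and *SMARCA1* siRNA A -0.28, adjusted p = 0.0958), and with *SMARCA4* siRNA B (-0.37, adjusted p = 0.0268) or *SMARCA1* siRNA C (-0.34, adjusted p = 0.0394) it was called. Both calls were fragile: in each knockdown they held in 2 of the 10 fits with a library left out, those without *SMARCA1* siRNA A replicate 1 or replicate 2, and the adjusted p of the other 8 fits reached 0.312 and 0.253, both without control replicate 1, where the log2 fold changes were -0.20 and -0.23. Processed copies of *RBBP4* share runs of up to 173 bases with its longest coding transcript. The 6 such copies among the genes counted had at most 12 counts in any library. How reads with several positions were treated is not given. The part of these copies in the level of *RBBP4* was not tested.

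Between the knockdowns, 4 of the 10 genes were called where 35.4% of all genes were. *SMARCA1* was higher in *SMARCA4* knockdown by a log2 fold change of 4.57 (adjusted p = 8.95e-07 by edgeR's quasi-likelihood test), and it is the target of the other arm. *BAZ2B* was higher in *SMARCA4* than in *SMARCA1* knockdown by 0.55 (SE 0.10, adjusted p = 0.00304), and no library of the one overlapped the other. *BAZ1B* was lower by 0.44 on the same scale (log2 fold change -0.44, SE 0.09, adjusted p = 0.005). Both calls held with each library left out, and *BAZ2B* was at 0.32 (adjusted p = 0.00407) and *BAZ1B* at -0.49 (adjusted p = 0.00064) with the length trend taken out. By siRNA, *BAZ2B* missed the threshold for *SMARCA4* siRNA A against *SMARCA1* siRNA C (0.27, adjusted p = 0.202), and *BAZ1B* for *SMARCA4* siRNA B against *SMARCA1* siRNA A (-0.18, adjusted p = 0.333) or siRNA C (-0.28, adjusted p = 0.162). *BAZ1A* was lower by -0.39 (SE 0.11, adjusted p = 0.0243). That call was lost without *SMARCA1* siRNA C replicate 1 (-0.38, adjusted p = 0.071), *SMARCA1* siRNA C replicate 2 (-0.39, adjusted p = 0.0731), *SMARCA4* siRNA A replicate 2 (-0.25, adjusted p = 0.0604), *SMARCA4* siRNA B replicate 1 (-0.39, adjusted p = 0.0533) or *SMARCA4* siRNA B replicate 2 (-0.36, adjusted p = 0.0816), and with *SMARCA4* siRNA B set against *SMARCA1* siRNA A the sign turned (0.15). For *BAZ2A* the difference was 0.20 (95% interval -0.07 to 0.46) and for *RBBP4* 0.01 (95% interval -0.18 to 0.20). Without *SMARCA1* siRNA A replicate 2, the arm of *SMARCA1* siRNA A consists of the library with the length trend, and then *BPTF* (0.27, adjusted p = 0.019), *BAZ2A* (0.35, adjusted p = 0.00778) and *CECR2* (0.42, adjusted p = 0.0379) were called too.

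The siRNAs of each target were also compared. With *SMARCA4* siRNA A, 4 of the 10 genes were called against the controls (33.2% of all genes), and with siRNA B 7 (45.0%). With *SMARCA1* siRNA A 4 were called (34.8%) and with siRNA C 6 (45.3%). Set against each other, *SMARCA4* siRNA A and siRNA B differed in 1 of the 10 genes, where 6.2% of all genes differed: *BAZ1A* was lower with siRNA A (-0.73, SE 0.16, adjusted p = 0.0308 by edgeR's quasi-likelihood test). With 1 library left out, the count of all genes called between these siRNAs moved as well. Changes in the count of the 10 genes between these siRNAs are therefore no result about them. None of the 10 was called there without *SMARCA4* siRNA A replicate 2, either library of *SMARCA4* siRNA B, either of *SMARCA1* siRNA C or either control, and 4 were called without either library of *SMARCA1* siRNA A. *SMARCA1* siRNA A and siRNA C differed in none of the 10 genes by edgeR's quasi-likelihood test or by DESeq2, and 1, *BAZ1A*, had an unadjusted p below 0.05 by edgeR. Of all genes, 0.0118% differed, or 2 by edgeR and 516 by DESeq2, with 2898 at an unadjusted p below 0.05. These siRNAs include the library that stands apart, and 266 genes were called without it, 1927 without *SMARCA1* siRNA A replicate 2.

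The order of the levels per length changed at the top. In the controls *BAZ1B* was highest at 42.9 CPM per kilobase, followed by *BAZ2A* (29.0) and *RBBP4* (28.2), which overlapped, then by *SMARCA5* (24.3), *BPTF* (13.5), *BAZ1A* (11.7), *RSF1* (7.7), *SMARCA1* (7.31), *BAZ2B* (2.11) and *CECR2* (0.561). All other neighbours in that order were apart in both controls. In *SMARCA4* knockdown *BAZ2A* was first (59.6 ± 7.36, SD, n = 4), followed by *SMARCA5* (38.8 ± 7.4) and *BAZ1B* (37.1 ± 6.54), and the latter pair overlapped. In *SMARCA1* knockdown *BAZ2A* (52.1 ± 8.75, n = 4) and *BAZ1B* (49.7 ± 4.7) overlapped at the top. *SMARCA1* was at 0.641 ± 0.169 CPM per kilobase there, overlapping *CECR2* (0.594 ± 0.144), the lowest of the 10.

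Other genes of ISWI complexes and interactors were taken from a list of 12, of which 11 were tested and *C17orf49* had too few counts. In *SMARCA4* knockdown 2 were called higher and 4 lower, where 22.8% and 22.3% of all genes were. In *SMARCA1* knockdown 1 was higher and 2 were lower, where 23.8% and 23.0% of all genes were. The median log2 fold changes of the 11 were -0.12 and -0.03. *RBBP7*, the paralog of *RBBP4*, had log2 fold changes of -0.46 (adjusted p = 0.00144) and -0.20 (adjusted p = 0.0771) in the same order. Of the histone-fold subunits of CHRAC, *POLE3*, which is also a subunit of DNA polymerase epsilon, was at -0.69 (adjusted p = 0.000764) and 0.16 (adjusted p = 0.256), with a difference between the knockdowns of -0.85 (adjusted p = 0.000195), while *CHRAC1* was at -0.12 (adjusted p = 0.328) and 0.07 (adjusted p = 0.562), all by edgeR's quasi-likelihood test. The lowest log2 fold change in both knockdowns was that of *DDX21*, a nucleolar RNA helicase, at -1.43 (adjusted p = 1.67e-05) and -0.60 (adjusted p = 0.00242). The highest in both was that of *LUZP1*, at 0.43 (adjusted p = 0.00915) and 0.35 (adjusted p = 0.0247).

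Among 10877 genes at a mean of 5 CPM or more, those whose log2 level ran most like that of *SMARCA5* over the 10 libraries were *PDZD2* (Pearson r 0.983), *HNF4G* (0.981), *PARP4* (0.974), *ARSK* (0.974) and *CFLAR* (0.973). Within the 10 ISWI genes, *BAZ2A* was closest to *SMARCA5* (r 0.925). Over the 6 libraries of controls and *SMARCA4* knockdown, the genes most like *SMARCA1* were *RNF146* (r 0.999), *MYO1G* (0.997), *DTX3* (0.996), *LINC00992* (0.996) and *KHNYN* (0.995). These values describe patterns over libraries that share treatment groups. Some libraries of *SMARCA1* knockdown also hold a length trend, strongest in siRNA A replicate 1.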

How the data were processed

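Poly(A) RNA of 10 VCaP libraries was sequenced by the authors. The authors deposited counts per gene, not normalized, made with HISAT2 2.1.0 and featureCounts 1.5.2 on hg38 per the submitters' processing notes. The annotation release for these libraries is not given in the sources used here. Counts over near-identical copies depend on how reads with several positions were treated, which is likewise not given.

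Groups came from the labels. Low genes were dropped with edgeR 4.0.16 in R 4.3.3 (filterByExpr, minimum count 10 and total 15), and the rest were scaled by TMM and fitted by the quasi-likelihood test to all 10 libraries as 5 groups. A knockdown is the mean of its 2 siRNA groups. P-values were adjusted over 16899 genes by the Benjamini-Hochberg method, and a gene below 0.05 was called. SE is the absolute log2 fold change over the square root of F. Sums and shares of the ATPase genes were compared by exact permutation tests over libraries (scipy 1.17.1). These treat the libraries of a target alike, whichever siRNA they had. Alternatives were DESeq2 1.42.0, other scalings and filters, a replicate block, fits of fewer groups, each siRNA alone and each library left out. Removal of the length trend, and the fit without both libraries that stand apart, were added after seeing the data. The script was tested on simulated data. Total counts of 23898545 to 34667965 put 3 counts at 0.0865 to 0.126 CPM, which covers counting error only.

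The 10 genes were all named by rule, as were the lists, and both were chosen with earlier results of these data known. siRNA sequences were matched to GENCODE transcripts of hg38, on both strands and without gaps. Some marker genes are not reported here by name.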

Additional observations from a re-analysis of the deposited data

Results flagged for a closer look

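*BAZ1A* stood out because its level was called different between the siRNAs of 1 target. With *SMARCA4* siRNA A it was lower than with siRNA B (log2 fold change -0.73, adjusted p = 0.0308 by edgeR's quasi-likelihood test). That call was lost with only these groups fitted and without either control. The libraries of siRNA A lay on either side of the controls.

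*BAZ1B* and *BAZ2B* stood out because their log2 fold changes against the controls had opposite signs in the knockdowns and the direct test between these passed the threshold, at -0.44 for *BAZ1B* and 0.55 for *BAZ2B* (*SMARCA4* minus *SMARCA1* knockdown).

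In 24 groups of 4 libraries, 2 held a value far from the other 3, where chance flags about 1 in 20. Both were in *SMARCA1* siRNA A replicate 1, the library in which level ran with gene length: *BAZ2A* at 426.4 CPM (the others 607.6 to 626.8) and *BAZ2B* at 28.6 CPM (the others 39.0 to 39.4). The part of the length trend in these values was not tested.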

How the results depend on the processing

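With 1 library left out, 255 of 300 log2 fold changes of ISWI genes kept direction and side of the threshold, 29 lost the call, 10 gained it and 6 changed sign. Under the other alternatives these were 315, 11, 9 and 15 of 350. No sign change was of a value called in both settings. Lost calls not given above were those of *RBBP4* in *SMARCA4* knockdown with no filter (adjusted p = 0.0788 by edgeR) and in *SMARCA1* knockdown with only the groups compared (adjusted p = 0.0563), and of *BAZ1A* for *SMARCA4* siRNA B against *SMARCA1* siRNA C (-0.20, adjusted p = 0.411). Differences of replicate 1 and replicate 2 correlated between groups with r between -0.10 and 0.36 over 10 pairs of groups. The highest were for *SMARCA4* siRNA A with siRNA B (0.36) and *SMARCA1* siRNA A with *SMARCA4* siRNA B (0.27). The labels do not say whether the numbers pair the libraries. A replicate block changed no call of the 10 genes. It called 16 genes between *SMARCA1* siRNA A and siRNA C, and 1301 between *SMARCA4* siRNA A and siRNA B, against 1048 without it. With 2 libraries a siRNA, the spread rests on few degrees of freedom, and no cause of the values below was tested. The number of genes tested also differed between settings. For *SMARCA4* siRNA A against siRNA B it was 16899 in the main fit, 13950 by DESeq2, 31986 with no filter and 15979 with only these groups. At a minimum of 1 CPM it was 12350, of which 1127 were called. Counts of ISWI genes below move with the counts over all genes and are no result about the ISWI genes.

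Genes called between *SMARCA4* siRNA A and siRNA B were 1674 by DESeq2, 2352 with no filter, 212 with only these groups, 1643 with the length trend removed and 48 to 2907 with 1 library left out, against 1048. The ISWI genes called there were 2, 3, 0, 4 and 0 to 4, with 2 at a minimum of 1 CPM and 2 without the libraries that stand apart. Genes called between *SMARCA1* siRNA A and siRNA C were 516, 1276, 0, 17 and 0 to 1927, with 2005 without the libraries that stand apart; ISWI genes there were 1 without these libraries and 0 to 3 with 1 left out.

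With 1 library left out, genes called were 4413 to 9183 in *SMARCA4* knockdown, 4430 to 9557 in *SMARCA1* knockdown (the lowest in each without control replicate 1) and 3683 to 8072 between them. ISWI genes called were 3 to 8 in *SMARCA4* knockdown (3 without either control) and 3 to 8 between the knockdowns (8 without *SMARCA1* siRNA A replicate 2). With single siRNAs set against each other (*SMARCA4* first), 3628 genes were called for A and A, 3886 for A and C, 3001 for B and C. ISWI genes called were 2 for B and C, beside the 3001 over all genes. They were also 2 for B and A, for which the count over all genes is not given here. These counts move with the number of all genes called and are no result about the ISWI genes.

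Sign changes were as follows. *BPTF* was at -0.13 with *SMARCA4* siRNA A and -0.00094 with *SMARCA1* siRNA A alone, and *CECR2* at -0.013 with *SMARCA1* siRNA C alone. Between the knockdowns *BPTF* was at -0.13 for A and A, -0.22 for A and C, -0.096 with the length trend removed and -0.056 without the libraries that stand apart. *SMARCA5* was at -0.21 and *BAZ2A* at -0.034 for A and C, *BAZ1A* at 0.15 for B and A, and *CECR2* at -0.087 without the libraries that stand apart. *RBBP4* was at -0.10 for B and A, -0.034 for B and C, -0.105 with the length trend removed and -0.057 without the libraries that stand apart. With 1 library left out, *BPTF* spanned -0.11 to 0.19 and *CECR2* -0.11 to 0.25 in *SMARCA1* knockdown, and between the knockdowns *BPTF* spanned -0.061 to 0.27, *RBBP4* -0.052 to 0.10 and *RSF1* -0.089 to 0.01. The ATPase sum of *SMARCA1* siRNA A alone minus control was -1.13 CPM per kilobase.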
